A study of Homo sapiens with 23 samples.

Results

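A549 human lung carcinoma cells that carried the inducible hairpin shD3 #4 were compared with their control cells, sh4Control, 6 of the 23 samples of the series. The comparison was chosen by the sample labels alone, with 3 samples of shD3 #4 and 3 of sh4Control, all harvested on day 6. A549 is an established epithelial line from a lung adenocarcinoma. The wider study depleted THUMPD3 in these cells with a pair of hairpins, shD3 #1 and shD3 #4, and with the small interfering RNA siD3 #3 (labelled siTHUMPD3), each set against its own control. The hairpins were delivered by lentivirus in the pLKO-Tet-On vector, in which doxycycline switches on transcription of the hairpin, and transduced cells were selected with puromycin. Whether pools or clones were used is not stated in the methods. The control samples are labelled as wild type, and the methods set untreated against treated samples within each knockdown and speak of untreated samples of the other hairpin. That wording fits uninduced cells of the same hairpin line, but how sh4Control cells were made is not stated outright in the sources used here. Effects of doxycycline, of THUMPD3 loss and of other targets of this one hairpin therefore cannot be told apart within the comparison. The other knockdowns enter here only to show where shD3 #4 differed, with 6 samples for shD3 #1 and sh1Control and 5 for siD3 #3 and siControl, 17 samples in the joint fit. The methods describe the replicates as biological without saying how the cultures were separated, so p-values measure the spread between these samples.

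THUMPD3 is a methyltransferase that, with its partner TRMT112, adds a methyl group to guanosines of transfer RNAs in the cytosol. TRMT112 also activates several other methyltransferases, among them TRMT11 of the same THUMP-domain family, and THUMPD2, a further relative, modifies a spliceosomal RNA. A short hairpin RNA is cut by Dicer into a small RNA that guides Argonaute to matching transcripts, which are then degraded, and partial matches can lower other transcripts too. A549 cells derive from lung but also transcribe a set of genes best known from liver, such as the fibrinogen chains.

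The samples were profiled by RNA sequencing after removal of ribosomal RNA, and the deposited values are read counts per gene. The libraries held 17603556 to 20682625 counts. Levels are given in cpm, the standard unit that divides each count by the library total, here after TMM scaling, and cpm values were compared between samples, never between genes. Of 61806 genes in the table, 16493 passed the filter on low counts. A gene could pass through the 3 samples of either group alone. The calls higher and lower required a Benjamini-Hochberg adjusted p under 0.05 in edgeR's quasi-likelihood test and a change of at least 1.5-fold between shD3 #4 and sh4Control. The mitochondrial genome took 27.8 to 30.9% of counts in the controls and 31.2 to 37.4% in shD3 #4, highest in shD3 #4 replicate 2. Cytosolic ribosomal protein genes took 1.6 to 1.97% of counts in the controls and 1.26 to 1.36% in shD3 #4.

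*THUMPD3* was lower in all 3 knockdown samples. Its levels were 66.0, 65.0 and 58.6 cpm in sh4Control and 20.2, 20.1 and 19.2 cpm in shD3 #4. The groups did not overlap and 31.4% of the control mean remained, a log2 fold change of -1.67 (SE 0.07, edgeR adjusted p = 2.42e-15, n = 3 per group). This was the 22nd lowest fold change of the 16493 genes tested. An exact two-sided permutation test of the 6 samples gave p = 0.1, the smallest value that 3 against 3 can reach. In bulk RNA, fewer cells with a transcript and less of it per cell cannot be told apart, here and for all genes below.

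*THUMPD3* lies on chromosome 3 at 9362971 to 9386791 on the plus strand of GRCh38. Its antisense transcript *THUMPD3-AS1* spans 9349689 to 9398579 on the minus strand and so covers the whole gene. *THUMPD3-AS1* had 42.5, 41.9 and 46.7 cpm in the controls and 48.6, 52.5 and 50.6 cpm in shD3 #4, without overlap, a log2 fold change of 0.21 (adjusted p = 0.0141) that stayed under the fold threshold. Which strand column of the counting was deposited is not given in the sources used here, so reads of this overlapping pair cannot be fully separated. Of the neighbours, *SRGAP3*, whose product regulates Rac signalling, was called higher at 5.16 ± 0.872 against 7.91 ± 0.115 cpm (SD, n = 3). *SETD5* and *LHFPL4* were not called, with log2 fold changes of 0.11 and -0.10.

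Across the transcriptome 1320 genes were called higher, 8% of those tested, and 741 lower, 4.49%. Every knockdown sample lay above every control for 24.7% of genes, and below every control for another 24.7%. The median log2 fold change over all genes was 0.0079. Protein-coding genes made up 985 of the genes called higher and 622 of those called lower, 7.63% and 4.82% of the 12916 tested. Long non-coding RNAs made up 231 and 81, which were 9.13% and 3.2% of the 2529 tested. Protein-coding genes called lower had a median summed exon length of 4347.5 bases and a median GC content of 50.62%, against 5803 bases and 46.75% for those called higher and 5563 bases and 47.73% for those not called.

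**Figure D1:**
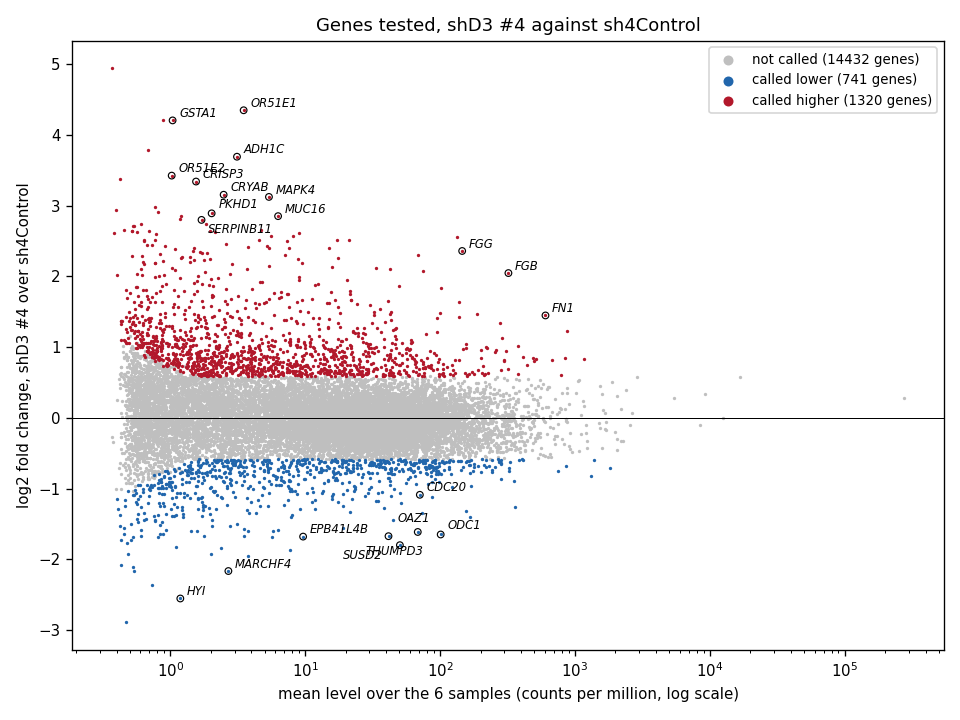
Log2 fold change of shD3 #4 over sh4Control (vertical axis) against the mean level over the 6 samples (horizontal axis, cpm, log scale) for the 16493 genes tested, coloured by call, with circles on some of the named genes. *OR51E1* and *GSTA1* are the highest circled points, at 4.35 and 4.20, and *HYI* the lowest, at -2.55.

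The other enzymes of the family moved little. The list of THUMP-domain proteins and TRMT112 partners held 9 genes, all tested, of which *THUMPD3* alone was called. *TRMT112* had 84.6, 72.1 and 65.0 cpm in the controls and 53.2, 56.3 and 61.8 cpm in shD3 #4, without overlap (log2 fold change -0.37, adjusted p = 5.21e-04). *TRMT11* had 17.2 ± 0.179 against 14.9 ± 0.453 cpm (SD), also without overlap, and *THUMPD2* 16.3 ± 1.17 against 13.9 ± 1.52 cpm, with overlap. None of these 3 reached the fold threshold.

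The steepest rises were in genes that the control cells barely transcribed. *OR51E1*, an odorant receptor found outside the nose, had 0.160, 0.382 and 0.421 cpm in the controls and 7.14, 6.65 and 6.25 cpm in shD3 #4. That is 19 counts over the 3 controls and 376 over the 3 knockdown samples, a ratio of 20.8 (95% exact counting interval 13.1 to 34.9, which covers counting error only). *OR51E2*, its neighbour on chromosome 11, rose from 10 to 106 counts, a ratio of 11.1 (5.81 to 23.9). Glutathione transferase *GSTA1* went from 1, 2 and 3 counts to 48, 26 and 38 (ratio 19.6, 8.72 to 54.5). Reads that *GSTA1* shares with its close relatives make this level uncertain.

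The remaining 9 of the 12 largest rises among protein-coding genes with a mean of at least 1 cpm ranged from 2.80 to 3.69 on the log2 scale. The 12 were chosen for groups without overlap and for a call in each of the 6 fits that left out 1 sample. *ADH1C*, an alcohol dehydrogenase with close relatives beside it, went from 0.449 ± 0.257 to 5.80 ± 0.309 cpm (SD, n = 3). *MUC16*, the mucin that carries the CA-125 antigen, had 1.76, 1.57 and 1.26 cpm in the controls and 11.2, 10.9 and 11.1 cpm in shD3 #4. *MAPK4*, an atypical MAP kinase, rose from 1.11 ± 0.311 to 9.68 ± 0.547 cpm. The small heat shock protein gene *CRYAB* rose from 0.501 ± 0.189 to 4.48 ± 0.642 cpm, and the renal cyst gene *PKHD1* from 0.476 ± 0.0501 to 3.58 ± 0.180 cpm. The others were *CRISP3*, *MAT1A*, *ALB* and *SERPINB11*, which lay between 0.270 and 0.425 cpm in the control means and between 2.06 and 2.99 cpm in shD3 #4.

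Many genes of liver plasma proteins rose. Of 39 listed hepatic and endodermal genes, 30 passed the filter, and 16 of these (53.3%) were called higher and 0 lower, against 8% and 4.49% of all genes. Their median log2 fold change was 0.80 (0.67 to 0.85 over the alternative settings). This list was chosen with earlier results of these data known, so its share is a description and not independent support. A longer list of 53 complement and coagulation genes was drawn up after values had been seen and overlapped the first. It had 22 of 33 tested members called higher and 1 lower, with a median of 0.96. Some members of these lists, such as *ALB*, *KNG1*, *C6* and *SERPINA5*, passed the filter only through their counts in shD3 #4. Such members could hardly be called lower, so these shares describe the tested members and are not a test of the lists.

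The fibrinogen chains, which assemble into the clot-forming protein, rose together. *FGB* had 106, 127 and 143 cpm in the controls and 490, 572 and 492 cpm in shD3 #4, a log2 fold change of 2.05 (SE 0.09, adjusted p = 2.09e-15). *FGG* had 42.6, 45.5 and 54.9 against 243, 254 and 236 cpm, a change of 2.36, and *FGA* 126, 129 and 158 against 257, 277 and 270 cpm, a change of 0.96. For none of the 3 chains did the groups overlap. The clotting cofactor *F5* rose from 6.27 ± 0.692 to 35.9 ± 3.06 cpm (SD), 5.73-fold. The transglutaminase subunit *F13B*, whose partner crosslinks fibrin, rose from 1.29 ± 0.313 to 8.17 ± 0.200 cpm. *F12*, the contact factor, went the other way, with 9.74, 10.0 and 8.36 cpm in the controls and 2.65, 2.58 and 4.25 cpm in shD3 #4, and was the 1 gene of that list called lower.

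Complement genes and their regulators were among the members that rose. *C3*, the central component, had 48.6, 50.6 and 60.2 cpm in the controls and 144, 146 and 153 cpm in shD3 #4. The proteases *C1R* and *C1S* rose from 16.1 to 39.0 and from 51.7 to 137 cpm in the group means. The inhibitors *C4BPA* and *CFI* had log2 fold changes of 2.52 and 2.40. Carrier proteins behaved likewise, with *ALB* (serum albumin) at 0.288 ± 0.0400 against 2.06 ± 0.252 cpm, *HPX* (haemopexin) at 0.496 ± 0.0805 against 2.29 ± 0.343 cpm, and *APOH* at 18.3 ± 1.15 against 53.4 ± 0.473 cpm. *KNG1*, *SERPINA5* and *C6* had 5, 5 and 4 counts in all 3 controls together and 95, 70 and 43 in shD3 #4, ratios of 19.9 (8.25 to 62.8), 14.7 (6 to 46.6) and 11.3 (4.10 to 43.3).

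The transcription factors that define hepatocytes did not all follow. *HNF4A* had 32.6 ± 1.36 against 34.7 ± 2.48 cpm (SD, n = 3), with overlapping groups and an edgeR adjusted p of 0.324. *FOXA3* was called higher, from 3.26 ± 0.230 to 5.82 ± 0.529 cpm. So were the endodermal and progenitor factors *SOX2*, from 13.8 to 27.4 cpm, and *SOX9*, from 22.8 to 38.5 cpm.

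Enzymes, transporters and receptors of alcohol, bile acid and xenobiotic metabolism showed the same direction in a list of 42 genes drawn up after values had been seen. Of 22 tested members 12 were called higher and 0 lower, with a median of 0.75. Members such as *GSTA1* and *MAT1A* passed the filter only through shD3 #4, so these counts are not a test of the list. *NR1H4*, the bile acid receptor, had 2.34, 2.58 and 2.31 cpm in the controls and 11.8, 13.8 and 12.7 cpm in shD3 #4. Part of the bile acid exporter, *SLC51B*, rose from 4.20 ± 0.826 to 13.2 ± 1.42 cpm, and the cytochrome *CYP3A5* from 9.63 ± 0.405 to 26.9 ± 0.596 cpm. *ADH6* rose from 1.65 ± 0.333 to 8.84 ± 1.61 cpm. Of 28 listed targets of the oxidative stress factor NRF2, 3 (10.7%) were called higher, near the 8% of all genes, and 0 lower. Those were *GPX2*, a glutathione peroxidase of gut and airway epithelium, at 156 against 398 cpm in the group means, *AKR1C1* at 251 against 510 cpm, and the exporter *ABCC2* at 631 against 957 cpm. *NQO1*, the usual reporter of NRF2 activity, had 892 ± 39.7 against 1134 ± 22.5 cpm, a log2 fold change of 0.35 under the threshold.

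Among the genes called lower, the 12 largest falls of protein-coding genes, chosen by the same limits of level and stability, ranged from -2.55 to -1.66 on the log2 scale and included *THUMPD3* itself. *HYI*, a putative hydroxypyruvate isomerase, had 2.45, 2.05 and 1.58 cpm in the controls and 0.189, 0.344 and 0.516 cpm in shD3 #4. The ubiquitin ligase genes *MARCHF4* and *RNF182* fell from 4.42 to 0.978 and from 3.19 to 0.828 cpm in the group means. *SUSD2*, a cell-surface protein, had 73.8, 75.2 and 86.1 against 23.0, 21.5 and 22.9 cpm. *CDH4* (a cadherin), *EPB41L4B*, *CCBE1*, *INSYN2B* and *BARX1* lay between 1.72 and 14.7 cpm in the control means and between 0.479 and 4.58 cpm in shD3 #4. The set was completed by *IL32* and *FOSL1*, described with their families below.

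The key pair of polyamine control fell together. *ODC1* encodes ornithine decarboxylase, which makes putrescine, and *OAZ1* encodes the antizyme that binds that enzyme and sends it to the proteasome. *ODC1* had 167, 158 and 135 cpm in the controls and 50.4, 44.8 and 51.6 cpm in shD3 #4, a log2 fold change of -1.65 (SE 0.08, adjusted p = 1.15e-14). *OAZ1* had 113, 105 and 91.2 against 34.8, 31.0 and 35.3 cpm, a change of -1.61 (SE 0.08, adjusted p = 1.74e-14). The groups were far apart in both genes. Over a list of 14 tested polyamine genes drawn up after these values had been seen, those 2 were called lower and *ARG2*, a mitochondrial arginase, was called higher, from 1.26 ± 0.153 to 3.17 ± 0.455 cpm. The median of the list was -0.28. Its shares were 14.3% called lower and 7.14% higher, against 4.49% and 8% of all genes.

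**Figure D2:**
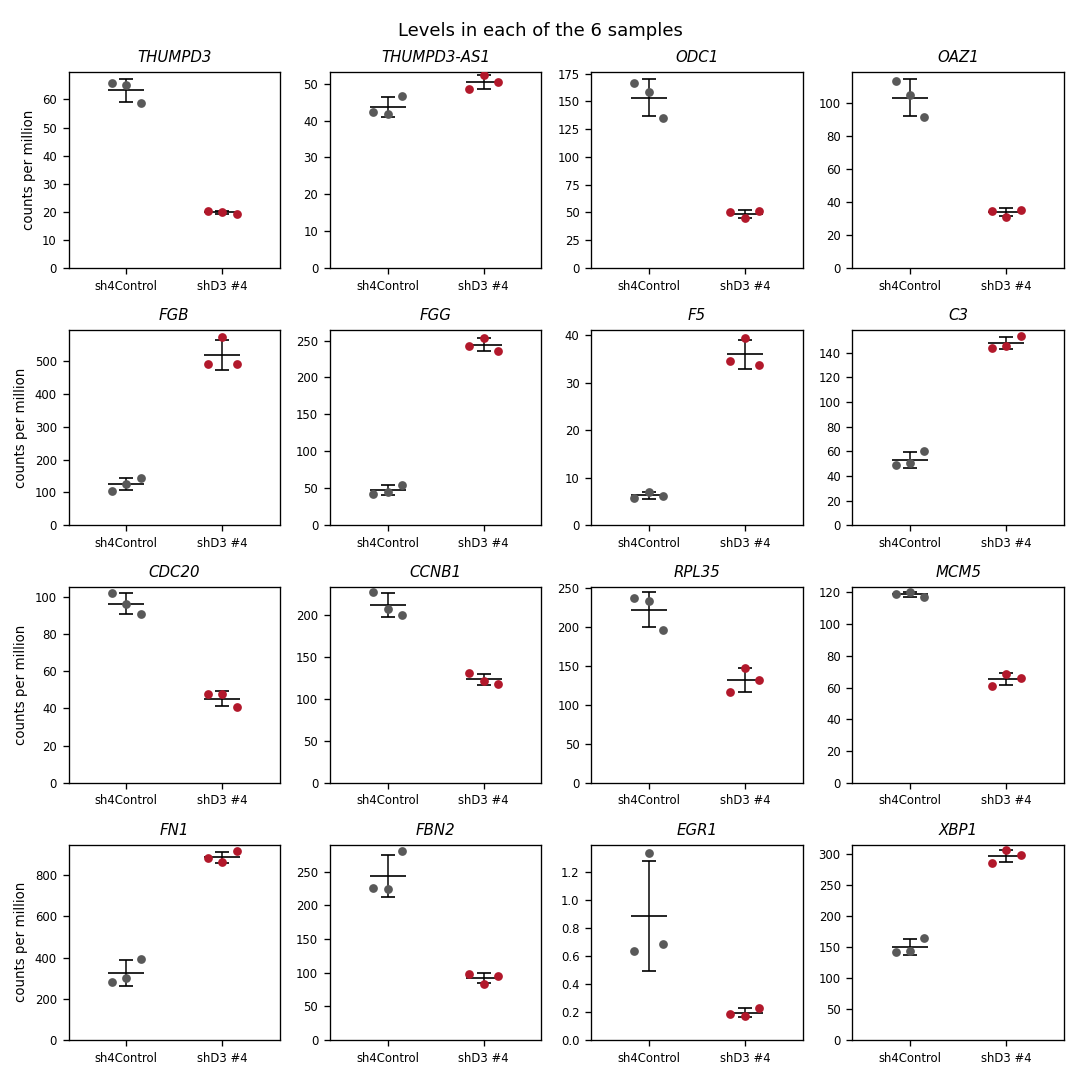
Levels (cpm) of 16 genes in each of the 6 samples, with the mean and SD of each group of 3 as black bars and each vertical axis starting at 0. In every panel the groups are separate, for example *ODC1* at 135 to 167 cpm in sh4Control and 44.8 to 51.6 cpm in shD3 #4.

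Genes of cell division were lower throughout their list, by small steps. All 80 listed M phase genes were tested, and 25 (31.2%) were called lower and 0 higher, against 4.49% and 8% of all genes. The median log2 fold change was -0.50 (-0.53 to -0.47 over the alternative settings). The fold change was negative for 80 of 80. For 78 every knockdown sample lay below every control, as for 24.7% of all genes. *CDC20*, the activator of the anaphase-promoting complex, had 102, 96.0 and 91.0 cpm in the controls and 47.6, 47.9 and 40.5 cpm in shD3 #4. Securin, *PTTG1*, which that complex destroys, fell from 55.0 ± 4.37 to 29.6 ± 2.92 cpm (SD). Cyclin B1, *CCNB1*, had 228, 208 and 201 against 131, 121 and 118 cpm. The mitotic kinase *PLK1* had 72.0, 82.7 and 80.8 against 49.5, 53 and 48.4 cpm. *MKI67*, the proliferation antigen, had 508 ± 42.0 against 436 ± 34.2 cpm with overlapping groups and was not called. Under a test against the fold threshold itself (glmTreat) 5 of the 80 were called lower.

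Genes of DNA replication and the replication-dependent histones shared this direction. Of 53 DNA replication genes, all tested, 13 (24.5%, against 4.49% of all genes) were called lower and 0 higher, and the median was -0.47. The helicase subunits *MCM5* and *MCM2* fell from 119 ± 1.59 to 65.2 ± 3.84 cpm and from 121 ± 1.93 to 71.6 ± 2.87 cpm, and the primase subunit *PRIM1* from 23.3, 22.7 and 20.4 to 11.5, 12.7 and 12.1 cpm. *PCNA*, the sliding clamp, had 303, 293 and 274 against 236, 245 and 242 cpm, apart but under the fold threshold. Of 56 listed histone genes 46 passed the filter, with a median of -0.53. Of these 14 (30.4%, against 4.49% of all genes) were called lower and 0 higher. *H4C13* had 41.7, 41.4 and 33.4 against 18.6, 23.3 and 23.0 cpm. Reads shared between histone copies make single members uncertain. The histone count rested on the libraries used, with 6 members without sh4Control replicate 1, 8 without shD3 #4 replicate 1, 10 without sh4Control replicate 2, 25 without shD3 #4 replicate 2 and 29 without sh4Control replicate 3.

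Promoters of M phase genes are known for a CCAAT box and a CHR element (cell cycle genes homology region, TTTGAA). RefSeq promoters (GRCh38.p14) were searched for both, on either strand of the 250 bases before the transcription start, and 17 of the 21 M phase genes called lower with a RefSeq promoter held CCAAT and 8 held both motifs. The same held for 36 and 20 of the 48 M phase genes not called. Among the 27305 genes with a promoter, 37.0% held the CCAAT box, 16.1% the CHR element and 6.86% both. A match is a run of letters and not evidence of binding. The 150 bases before the start are shown for 4 genes that held both, 5′ to 3′ on the strand of the gene, with both motifs and their reverse complements in capitals. Overlapping matches in *HMMR* run together.
CDC20 promoter, chr1:43358831-43358980, plus strand: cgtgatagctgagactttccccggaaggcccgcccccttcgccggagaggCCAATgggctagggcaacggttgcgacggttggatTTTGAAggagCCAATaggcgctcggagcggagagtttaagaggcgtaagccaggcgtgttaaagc
PLK1 promoter, chr16:23678739-23678888, plus strand: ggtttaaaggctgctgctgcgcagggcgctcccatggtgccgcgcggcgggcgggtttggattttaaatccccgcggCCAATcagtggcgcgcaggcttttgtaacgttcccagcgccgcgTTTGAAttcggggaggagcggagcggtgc
CCNB2 promoter, chr15:59104996-59105145, plus strand: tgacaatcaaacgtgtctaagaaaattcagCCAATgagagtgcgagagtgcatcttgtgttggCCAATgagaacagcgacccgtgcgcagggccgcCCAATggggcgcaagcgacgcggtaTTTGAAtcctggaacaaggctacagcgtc
HMMR promoter, chr5:163460482-163460631, plus strand: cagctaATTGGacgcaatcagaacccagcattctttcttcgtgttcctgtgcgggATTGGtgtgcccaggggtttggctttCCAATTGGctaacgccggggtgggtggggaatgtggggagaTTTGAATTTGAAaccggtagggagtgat
*CCNB2* (cyclin B2) fell from 85.0 ± 0.976 to 52.1 ± 2.90 cpm and *HMMR*, a spindle protein, from 111 ± 7.69 to 66.8 ± 6.45 cpm.

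Some ribosomal protein genes were called lower and a few mitochondrial mRNAs higher, most members of both lists passing no threshold. All 76 cytosolic ribosomal protein genes were tested, and the median was -0.42 (-0.49 to -0.36). Of these 24 (31.6%, against 4.49% of all genes) were called lower and 0 higher. For 58 of them every knockdown sample lay below every control, as for 24.7% of all genes. *RPL35* had 236, 233 and 196 cpm in the controls and 116, 147 and 132 cpm in shD3 #4. These genes have many near-identical pseudogene copies, so reads shared with them are uncertain. The count fell to 12 without sh4Control replicate 1, which had the highest ribosomal protein share, and to 10 without shD3 #4 replicate 1, which had the lowest, and glmTreat called 0.

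Of the 13 mRNAs of the mitochondrial genome, 3 (23.1%, against 8% of all genes) were called higher and 0 lower. All 13 had a positive fold change, and the median was 0.40 (0.23 to 0.48). *MT-ATP8* had 18.7, 33.8 and 30.5 cpm in the controls and 40.7, 107 and 53.6 cpm in shD3 #4. *MT-ND3* had 161, 186 and 183 against 255, 462 and 314 cpm. The widest spread came from shD3 #4 replicate 2, the library with the largest mitochondrial share, and without it 2 of the 13 were called, against 5 without shD3 #4 replicate 1 or replicate 3. Among 20 aminoacyl-tRNA synthetases, the enzymes that charge transfer RNAs, 0 were called, with a median of -0.26. For 16 of them every knockdown sample lay below every control, as for 24.7% of all genes. Of 10 genes of the mitochondrial unfolded protein response 0 were called.

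**Figure D3:**
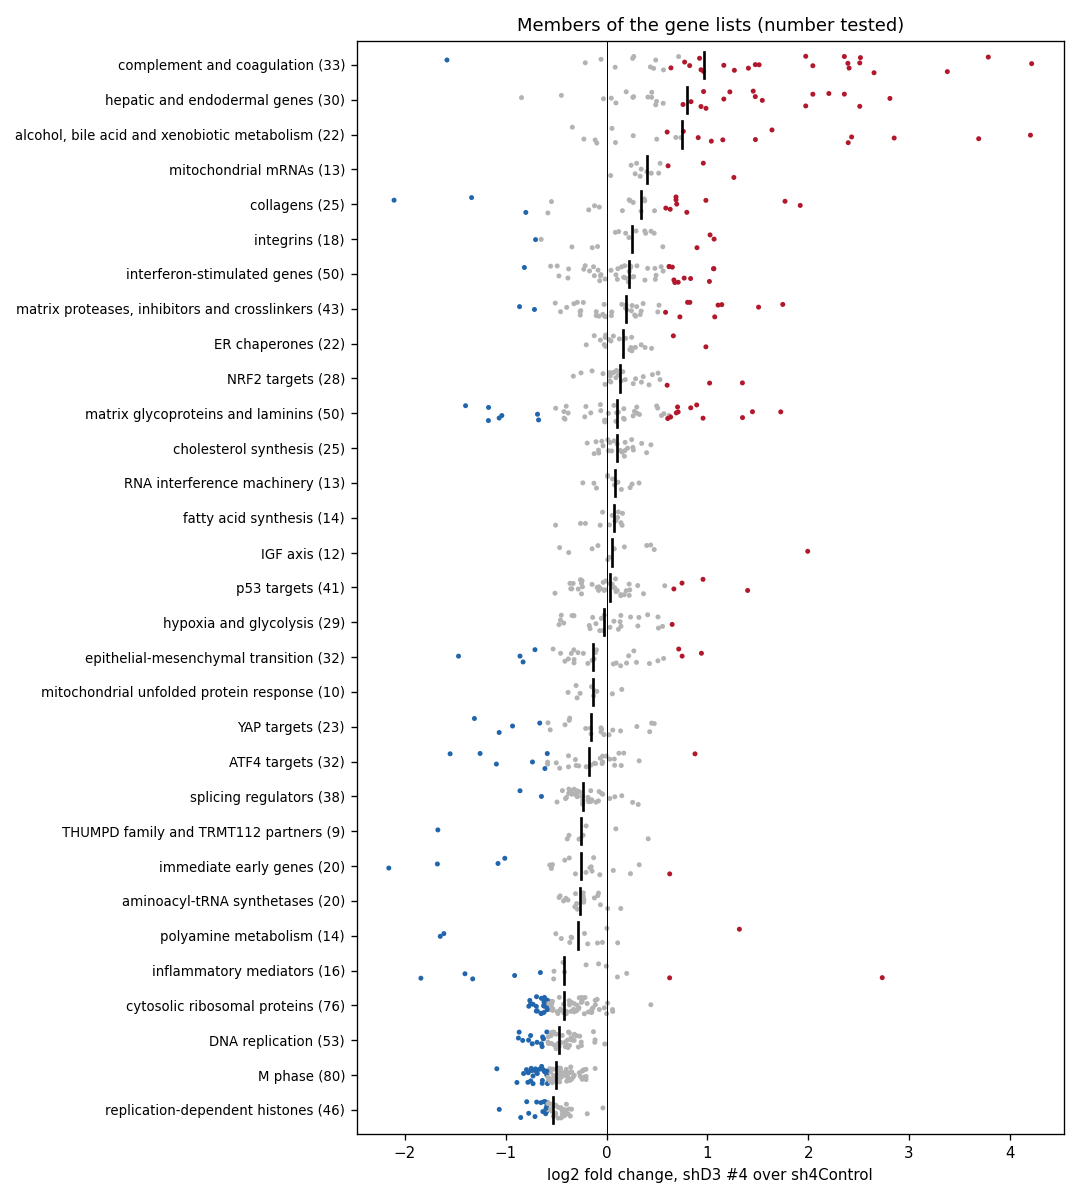
Log2 fold change of shD3 #4 over sh4Control for each tested member of the gene lists, in order of the list median, with vertical black bars at the medians, red points called higher, blue called lower and grey not called. The medians run from -0.53 for replication-dependent histones to 0.96 for complement and coagulation, and M phase points all lie left of 0.

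Extracellular matrix genes moved in both directions. Of 36 listed collagen genes 25 were tested, 9 (36.0%) called higher and 3 (12%) lower, against 8% and 4.49% of all genes. The median of the collagens was 0.34. The count called higher was 6 with DESeq2, 5 in 1 fit of all 17 samples and 3 under glmTreat. *COL11A1*, a fibrillar collagen of cartilage, had 1.65, 1.96 and 2.37 cpm in the controls and 7.47, 7.57 and 7.63 cpm in shD3 #4. The basement membrane chains *COL4A3*, *COL4A4* and *COL4A5* rose from 18.4 to 29.7, from 31.5 to 62.4 and from 73.3 to 118 cpm in the group means. The related chains *COL4A1* and *COL4A2* went down, from 194 to 133 and from 280 to 187 cpm, without overlap but under the fold threshold. *COL5A1*, which nucleates collagen fibrils, fell from 105 ± 18.9 to 41.4 ± 1.64 cpm. *COL13A1* fell from 51 to 11 counts in all, and *COL3A1* had 3, 15 and 3 counts in the controls against 27, 17 and 25.

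Among 50 tested matrix glycoproteins and laminins, 11 (22%) were called higher and 7 (14%) lower, against 8% and 4.49% of all genes. Fibronectin, *FN1*, had 281, 299 and 395 cpm in the controls and 881, 862 and 915 cpm in shD3 #4, a log2 fold change of 1.45 (SE 0.09, adjusted p = 2.05e-12). Vitronectin, *VTN*, a plasma protein that also coats matrix, rose from 22.2 ± 4.66 to 56.5 ± 5.19 cpm, and the proteoglycan lumican, *LUM*, from 1.47 ± 0.460 to 4.89 ± 0.691 cpm. Fibrillin 2, *FBN2*, fell, with 226, 225 and 280 against 98.9, 83.9 and 94.5 cpm. *LAMB3*, a laminin chain of epithelial basement membrane, rose from 22.9 to 35.6 cpm. Fibrillin 1, *FBN1*, and tenascin C, *TNC*, were not called, with log2 fold changes of 0.50 and -0.20.

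Receptors and enzymes that act on the matrix mostly rose where they were called. Of 18 integrin genes tested 3 (16.7%, against 8% of all genes) were called higher and 1 (5.56%) lower, near the 4.49% of all genes. Those higher were *ITGA7*, *ITGB6* and *ITGB8*, with log2 fold changes of 1.07, 1.03 and 0.90, and the 1 lower was *ITGA4*, at -0.70. Of 43 tested proteases, inhibitors and crosslinkers 9 (20.9%) were called higher and 2 (4.65%) lower, the latter near the share of all genes. *MMP28*, a matrix metalloproteinase, rose from 3.44 ± 0.0462 to 11.6 ± 0.775 cpm and *TLL1*, a procollagen processing protease, from 4.80 ± 0.175 to 13.6 ± 0.704 cpm. The lysyl oxidase *LOXL2* was among those called lower, at 58.8 against 35.9 cpm.

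Few targets of YAP or genes of the mesenchymal state passed the test. Of 23 listed targets of YAP, the effector of the Hippo pathway, 4 (17.4%, against 4.49% of all genes) were called lower and 0 higher. The receptor tyrosine kinase *AXL* had 224, 217 and 231 cpm in the controls and 88.8, 94.1 and 87.9 cpm in shD3 #4, and *CCN1* 16.7, 19.7 and 17.8 against 8.75, 9.86 and 7.34 cpm. *ANKRD1* fell from 11.6 ± 2.60 to 6.08 ± 0.649 cpm and *AJUBA* from 103 to 65.1 cpm, while *CCN2* had 7.42 ± 0.4 against 5.58 ± 0.720 cpm and was not called. Among 32 tested genes of the epithelial-mesenchymal transition DESeq2 called 3 each way. The main test called 3 (9.38%) higher, near the 8% of all genes, and 4 (12.5%) lower, against 4.49% of all genes. Those lower were *SNAI2*, a repressor of epithelial genes, the growth factor *TGFB1*, and *KRT7* and *ESRP1*, both best known from epithelial cells. The groups overlapped for *ESRP1*, which was called in 2 of the 6 fits that left out a sample. Those higher were the receptor *TGFBR2*, at 210 ± 17.1 against 404 ± 15.2 cpm, and the junction genes *CLDN4* and *TJP3*. *VIM* had 687 ± 16.2 against 476 ± 26.2 cpm and *CDH1* 108 ± 11.2 against 133 ± 0.904 cpm, both apart and both under the fold threshold.

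Inflammatory mediators and immediate early genes fell in part. Of 28 listed mediators 16 were tested, 5 (31.2%) called lower and 2 (12.5%) higher, against 4.49% and 8% of all genes. The median of the mediators was -0.42. The interleukins *IL32* and *IL11* had 3.73 ± 0.227 against 1.04 ± 0.191 cpm and 30.8 ± 1.67 against 12.3 ± 1.00 cpm, and the neutrophil attractant *CXCL8* 12.2, 10.6 and 11.4 against 5.25, 3.21 and 4.30 cpm. The alarmin *IL33* rose from 9 counts in all to 59, a ratio of 6.88 (3.39 to 15.8). Of 20 tested immediate early genes 4 (20%) were called lower and 1 (5%), *KLF4*, higher, against 4.49% and 8% of all genes. The AP-1 subunits *FOSL1* and *JUN* fell from 8.57 ± 0.474 to 2.7 ± 0.358 cpm and from 25.7 ± 1.76 to 12.2 ± 0.717 cpm, and *IER3* from 60.4 ± 2.94 to 30.1 ± 2.85 cpm. *EGR1* had 12, 28 and 13 counts in the controls and 4, 3 and 4 in shD3 #4. *FOS* had 5.41 ± 0.439 against 3.70 ± 0.538 cpm, under the fold threshold.

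Interferon-stimulated genes rose in part, and most p53 targets passed no threshold. Of 50 tested interferon-stimulated genes 11 (22%) were called higher and 1 (2%), *HERC5*, lower, against 8% and 4.49% of all genes. The median of the interferon-stimulated genes was 0.22. The count called higher was 8 in 1 fit of all 17 samples and 1 under glmTreat. *ISG15*, *MX1* and *EIF2AK2* were not called, with log2 fold changes of 0.15, 0.26 and 0.04. *IFIT2* had 2.66, 2.15 and 2.79 cpm in the controls and 5.30, 5.73 and 4.30 cpm in shD3 #4, whereas *IFI44* and *IFI27* had overlapping groups, with 1.32 cpm at most, and were called in 2 of the 6 fits that left out a sample. Of 41 p53 targets 4 (9.76%) were called higher, near the 8% of all genes, and 0 lower, with a median of 0.03. They were *TP53INP1*, at 8.27 ± 1.33 against 21.8 ± 0.832 cpm, *TRIM22*, *BTG2* and *SUSD6*. *CDKN1A*, the cyclin kinase inhibitor p21, had 52.2 ± 0.830 against 59.7 ± 2.47 cpm and *MDM2* 134 ± 3.20 against 144 ± 8.25 cpm, and neither was called.

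Targets of ATF4 and genes of the endoplasmic reticulum held few calls. Of 32 tested targets of ATF4, the factor of the integrated stress response, 6 (18.8%) were called lower and 1 (3.12%) higher, against 4.49% and 8% of all genes. *STC2*, a secreted glycoprotein, had 29.4, 27.5 and 28.1 cpm in the controls and 9.22, 8.14 and 11.7 cpm in shD3 #4, and *CHAC1* fell from 3.05 ± 0.308 to 1.42 ± 0.488 cpm. The transsulfuration enzymes split, with *CBS* falling from 1.58 ± 0.138 to 0.654 ± 0.169 cpm and *CTH* rising from 3.69 ± 0.264 to 6.72 ± 0.815 cpm. *ATF4* itself had 144 ± 9.98 against 102 ± 3.47 cpm, under the fold threshold. Of 22 genes of chaperones and the unfolded protein response 2 (9.09%) were called higher, near the 8% of all genes. They were *XBP1*, with 142, 143 and 165 against 286, 307 and 298 cpm, and *DNAJB9*, with 19.4 ± 0.410 against 30.8 ± 1.41 cpm. *HSPA5*, the main chaperone there, had 137 ± 20.5 against 163 ± 15.3 cpm with overlap.

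Several further lists held few calls or none. Of 25 cholesterol synthesis genes and 14 tested fatty acid synthesis genes 0 were called, with medians of 0.11 and 0.07. Of 13 genes of the RNA interference machinery 0 were called, among them *DICER1*, with 117 ± 1.66 against 139 ± 2.03 cpm, and *AGO2*, with 77.6 ± 1.6 against 83 ± 8.11 cpm. The list of 29 hypoxia and glycolysis genes had 1 (3.45%, against 8% of all genes) called higher, *EGLN3*. Of 12 tested genes of the insulin-like growth factor axis 1 (8.33%) was called higher, near the 8% of all genes. It was *IGFBP5*, which binds these growth factors, with 3.09, 3.34 and 4.42 against 15, 13.6 and 14.5 cpm. Of 38 tested splicing regulators 2 (5.26%) were called lower, near the 4.49% of all genes. They were *ESRP1* and *QKI*, the latter at 73.8 ± 3.83 against 47.1 ± 4.27 cpm. A call of 0 here means that no member passed both thresholds, not that levels were equal.

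The label of the cells was checked against markers. The 9 markers of A549 epithelium summed to 9546 to 9728 cpm in the controls and 8812 to 9306 cpm in shD3 #4. The sum covers 5 members that rose and 4 that fell, each without overlap, with *CEACAM6* called higher and *KRT7* lower. Leukocyte markers summed to 4.58 to 4.84 against 4.30 to 6.19 cpm, with 3 of 8 at 0 in all 6 samples, the lymphocyte genes *CD3E* and *MS4A1* among them. Fibroblast markers, which include *LUM* and *COL3A1*, summed to 8.89 to 14.7 against 16.8 to 18.4 cpm, and endothelial markers to 0.47 to 0.59 against 1.18 to 1.83 cpm, both higher in shD3 #4. Their part in the matrix results was not tested. Of the 9 alveolar type II markers 3 passed the filter, *SFTPA1* was at 0 throughout, and *SFTPD* had 6, 11 and 11 counts in the controls and 48, 53 and 37 in shD3 #4.

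Whether shD3 #4 acted as the other knockdowns of *THUMPD3* did was asked with a joint fit of the 17 samples, in which the effect of shD3 #4 minus the effect of the other knockdown was tested for each gene. The knockdowns have separate control samples. In the group means *THUMPD3* fell from 61.3 to 31.4 cpm with shD3 #1 and from 67.1 to 11.5 cpm with siD3 #3, so that shD3 #4, at 63.2 to 19.8 cpm, lay between them. Both differences in log2 fold change passed the test, at -0.70 (SE 0.10, adjusted p = 1.17e-05) against shD3 #1 and 0.86 (SE 0.11, adjusted p = 3.65e-06) against siD3 #3.

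With shD3 #1, 29.1% of the genes tested were called, and 22% with siD3 #3, against 12.5% with shD3 #4. Of 15924 genes tested with both hairpins 975 were called with both, 555 with the same sign and 420 with opposite signs. The 555 are 29.0% of the shD3 #4 calls and 12.4% of the shD3 #1 calls. The difference itself was called for 25.9% of 18672 genes, and for all 420 of the opposite ones. With siD3 #3, 719 of 15950 were called in both, 624 in the same direction, 31.9% of the shD3 #4 calls and 18.9% of the siD3 #3 calls, and 95 in opposite directions. That difference was called for 17.8% of genes.

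Fibrinogen genes were among those with opposite effects. *FGB* rose from 125 to 518 cpm with shD3 #4 and fell from 138 to 12 cpm with shD3 #1 in the group means, a difference of 5.57 (SE 0.71, adjusted p = 3.28e-06), and *FGG* rose from 47.7 to 244 and fell from 57.2 to 7.37 cpm. *F5* did not follow them, since it rose with both hairpins, from 6.27 to 35.9 and from 7.24 to 29.1 cpm, with a difference of 0.50 (SE 0.65, adjusted p = 0.578). Over 28 hepatic and endodermal genes tested with both, 14 were called higher with shD3 #4, and 6 higher and 8 lower with shD3 #1. With siD3 #3 the samples varied widely, *FGB* ranging from 17.3 to 68.2 cpm in siControl and from 4.68 to 59.7 cpm in siD3 #3. Of 29 hepatic and endodermal genes 5 were called higher with siD3 #3 and 1 lower. Of 30 complement and coagulation genes 8 were called higher and 1 lower, with medians of 0.69 with siD3 #3 and 0.93 with shD3 #4. The alcohol, bile acid and xenobiotic list had medians of 0.51 and 0.75. The medians of those last lists were thus positive with siD3 #3 as well, but shD3 #1 gave calls both ways. With shD3 #1, 10 of 30 complement and coagulation genes were called higher and 11 lower, with a median of -0.08. The difference was called for 17 with shD3 #4 higher and for 7 with shD3 #4 lower. Of 20 alcohol, bile acid and xenobiotic genes 6 were called higher and 7 lower with shD3 #1, with a median of 0.19. There the difference was called for 8 and 3. *MAPK4*, *ADH6*, *TM4SF20*, *FXYD6* and *PLXNC1* were, with *FGB*, the genes of largest difference among those chosen for opposite calls, higher with shD3 #4 and lower with shD3 #1. In shD3 #1 the means of *MAPK4*, *ADH6*, *FXYD6* and *PLXNC1* were 0.160 cpm or less, so the size of their differences rests on few counts.

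Opposite signs were also found among signalling genes that fell with shD3 #4. *EGR1* had group means of 0.886 and 0.197 cpm with shD3 #4, but 1.19 and 15.9 cpm with shD3 #1, a difference of -5.89 (SE 0.71, adjusted p = 1.68e-06). *JUN* rose from 22.4 to 83.1 cpm with shD3 #1 and from 36.9 to 71.3 cpm with siD3 #3, *FOSL1* from 8.34 to 29.3 cpm with shD3 #1, and *AXL* from 211 to 596 cpm with shD3 #1. *CXCL8* rose from 26.3 to 108 cpm and *IL32* from 2.07 to 9.72 cpm with siD3 #3. Each of these differences from shD3 #4 passed the test. Over all genes tested in both comparisons, opposite calls numbered 420 of 15924 with shD3 #1 and 95 of 15950 with siD3 #3. Of 20 immediate early genes 3 were opposite with shD3 #1 and 1 with siD3 #3, and of 23 YAP targets 2 and 1. Inflammatory mediators had 3 of 15 opposite with shD3 #1 and 4 of 16 with siD3 #3.

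The fall of the polyamine pair was larger with shD3 #4 than the changes with the other knockdowns. *ODC1* had 127 and 162 cpm with shD3 #1 and 167 and 133 cpm with siD3 #3, control first, and was called with neither. The differences were -1.99 (SE 0.14, adjusted p = 1.96e-09) and -1.34 (SE 0.15, adjusted p = 1.04e-06). *OAZ1* had 82.1 and 107 cpm with shD3 #1 and 147 and 113 cpm with siD3 #3, with differences of -1.99 (SE 0.15, adjusted p = 3.31e-09) and -1.25 (SE 0.16, adjusted p = 4.09e-06). *EPB41L4B*, *CDH4* and *RNF182* were likewise called lower with shD3 #4 and with neither of the others, and their differences passed both tests.

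Cell cycle genes were lower with every knockdown, with the median nearest to 0 in shD3 #4. The M phase list had medians of -0.50 with shD3 #4, -1.07 with shD3 #1 and -3.34 with siD3 #3, and the difference was called, with shD3 #4 higher, for 38 of 80 genes against shD3 #1 and for 78 against siD3 #3. *CDC20* itself differed from shD3 #1 by 0.18 (SE 0.17, adjusted p = 0.436), and from siD3 #3 by 2.53 (SE 0.19, adjusted p = 2.30e-09). Of 41 p53 targets 31 were called higher with shD3 #1 and 36 with siD3 #3 against 4 with shD3 #4, and 2 were called lower with shD3 #1. The difference was called for 29 and 39 of them with shD3 #4 lower, and for 3 and 0 with shD3 #4 higher. The ribosomal protein list had a median of 0.44 with shD3 #1, and 57 of 76 genes differed from it with shD3 #4 lower, against 4 from siD3 #3. Fatty acid synthesis genes, of which 8 of 14 were called lower with shD3 #1, had 0 calls with shD3 #4, and the difference was called for 8 genes with shD3 #4 higher and 1 lower.

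**Figure D4:**
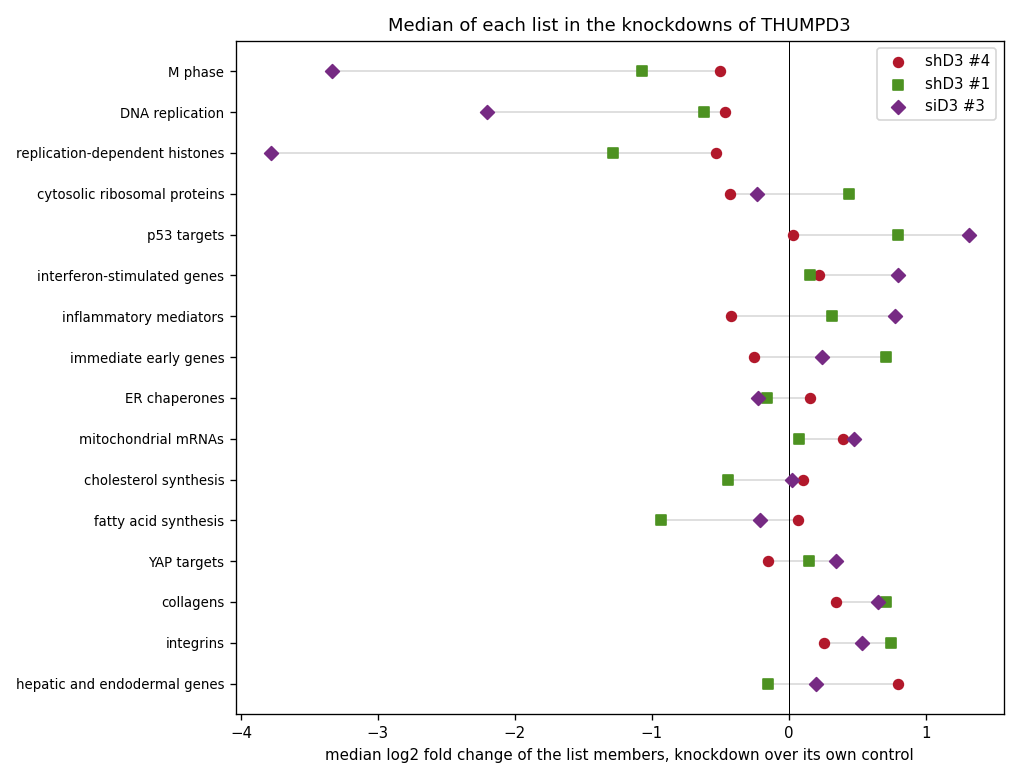
Median log2 fold change of the members of 16 gene lists in each knockdown of *THUMPD3* over its own control (red circles, shD3 #4, members tested there; green squares, shD3 #1; purple diamonds, siD3 #3, members tested in both comparisons). For M phase the medians are -0.50, -1.07 and -3.34, and for p53 targets 0.03, 0.80 and 1.32.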

How the data were processed

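Samples were grouped by their GEO labels, and columns were assigned by the sample names in the labels. The authors trimmed reads with Trimmomatic 0.40 and deposited whole-number read counts per Ensembl gene from STAR 2.7.10a on GRCh38.p14. A second table, of 6 deeper libraries of shD3 #1 and sh1Control, was not used here. The genes were named from GENCODE 44, with 61757 of 61806 matched. Counts were filtered with filterByExpr, scaled by TMM and tested with edgeR 4.0.16 (glmQLFit, glmQLFTest) in R 4.3.3 over 6 samples, with Benjamini-Hochberg adjustment over 16493 genes, and the standard error was the fold change over the root of F. Differences between knockdowns were interaction terms over 17 samples and 18672 genes.

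Genes were named by rule: *THUMPD3* and its relatives, the 12 largest rises and falls, up to 4 called members of each list, and the 6 largest opposite differences. Other names were chosen after values were seen. Some genes that the rule would name are not reported here. The members and lists were chosen with earlier results of these data known, and 3 lists after their values were seen. Alternatives were DESeq2 1.42.0, its size factors, other filters, TMM without mitochondrial genes, a replicate block, 1 fit of all 17 samples, glmTreat, a log2 threshold of 1 and leaving out each sample. Counting intervals for sparse genes were exact (conditional binomial, 95%).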

Additional observations from a re-analysis of the deposited data

Results flagged for a closer look

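The 12 results below were picked because the effect of shD3 #4 differed from that of another knockdown by the test of the difference itself, with calls in opposite directions, and are given as differences of log2 fold changes, shD3 #4 minus the other, with edgeR adjusted p.

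Against shD3 #1 the difference was 6.5 for *MAPK4* (SE 1.17, adjusted p = 1.59e-04), 6.22 for *ADH6* (SE 1.12, adjusted p = 1.53e-04) and 6.06 for *TM4SF20*, a membrane protein (SE 0.66, adjusted p = 4.50e-07). It was 5.89 for *FXYD6*, a regulator of the sodium pump (SE 0.86, adjusted p = 1.50e-05), 5.57 for *FGB* (SE 0.71, adjusted p = 3.28e-06) and 5.52 for the semaphorin receptor *PLXNC1* (SE 0.42, adjusted p = 3.61e-09). *FXYD6* had 0.479, 0.715 and 1.05 cpm in sh4Control and 1.61, 2.01 and 0.861 cpm in shD3 #4, so its groups overlapped, and its call with shD3 #4 was kept in 3 of the 6 fits that left out a sample. From sh1Control to shD3 #1 the group means fell to near 0 for several of these genes. They went from 0.789 to 0.0856 cpm for *MAPK4*, 1.67 to 0.126 for *ADH6*, 0.881 to 0.0177 for *FXYD6* and 1.46 to 0.160 for *PLXNC1*. Their differences thus rest on few counts.

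Against siD3 #3 the difference was -4.09 for *IL32* (SE 0.43, adjusted p = 3.26e-07), 3.73 for the transporter-like gene *SVOPL* (SE 0.60, adjusted p = 7.50e-05) and 3.67 for *SPTLC3*, a subunit of the enzyme that starts sphingolipid synthesis (SE 0.30, adjusted p = 7.08e-09). It was -3.43 for *CXCL8* (SE 0.33, adjusted p = 7.86e-08), -3.43 for *KANK3* (SE 0.32, adjusted p = 4.14e-08) and -3.37 for the actin-binding *TAGLN* (SE 0.23, adjusted p = 6.11e-10). siControl had 2 samples.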

How the results depend on the processing

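The counts of 1320 genes higher and 741 lower became 503 and 179 under glmTreat and 531 and 187 at a log2 threshold of 1, where 73.8% and 74.0% of calls were higher against 64.0%. Leaving out 1 sample gave 1197 to 1498 higher and 657 to 879 lower. The genes that differed from shD3 #1 went from 4841 to 2580, and from siD3 #3 from 3324 to 1891, at a log2 threshold of 1. DESeq2 called 1106 higher and 653 lower. The labels repeat replicate numbers across the groups, but same-numbered samples deviated together with correlations of 0.04, 0.06 and 0.00, so the numbers were not taken to pair samples, and a fit with the replicate block called 1316 higher and 744 lower. Over 157 genes followed one by one and their alternatives, 2202 of 2327 values kept direction and side of the threshold, 107 fell under it, 18 rose above it and 0 reversed. No setting moved the median of all genes by 0.1. Members near 1 cpm rest on few counts, so a missing call there is not evidence of equal levels.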
